A study of Homo sapiens with 18 samples.

Results

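The comparison set 3 samples of the cell line L428-PAX5 against 3 samples of L428, all given mifepristone for 5 days and none given a chromatin drug, across the 18417 genes that had a probe set carrying 1 gene symbol. These 6 samples are part of a series of 18 arrays in 6 groups of 3. L428 is a Hodgkin lymphoma line, and L428-PAX5 is a derivative that produces the transcription factor PAX5 when mifepristone is added. Both groups, called L428+M and L428-PAX5+M, were grown in RPMI with 10% fetal calf serum and received 0.25 nM mifepristone, so the control also carried the inducer, but the medium of L428-PAX5 additionally held 25 mM HEPES. A pair of further groups of the same lines (L428+MAT and L428-PAX5+MAT) had 2 days of mifepristone alone, then 3 days with 3 µM 5-aza-2'-deoxycytidine, which blocks DNA methylation, and 640 nM trichostatin A, an inhibitor of histone deacetylases, over the final 24 hours. Untreated Raji and Namalwa, both Burkitt lymphoma lines, gave levels in B-cell tumours that kept their identity. Uninduced L428-PAX5 was not analysed here, so induced PAX5, differences between the line and its parent, and HEPES cannot be told apart. Whether the 3 samples of a group came from separate cultures is not stated in the labels. The p-values therefore reflect only the spread among arrays within the 6 groups, which could be technical.

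PAX5 commits lymphoid precursors to the B lineage. It binds DNA through a paired domain, switches on genes of the B-cell receptor and its co-receptors, and holds down genes of myeloid, T-cell and plasma-cell fates. Reed-Sternberg cells of classical Hodgkin lymphoma descend from germinal-centre B cells but have lost most B-cell expression, and instead carry active NF-kB, JAK-STAT and AP-1 signalling and secrete cytokines that draw in other immune cells. The question these samples address is which genes differ once PAX5 is abundant in such a cell.

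Expression is given as log2 signal, on which a difference of 1 is a 2-fold change. Array medians lay between 6.52 and 6.70. Replicate arrays correlated across genes with r between 0.9813 and 0.9932 in these 2 groups, and in each group the array numbered 3 correlated least with the others. Markers of Hodgkin cells averaged 9.84 to 10.25 in L428+M and 9.81 to 10.10 in L428-PAX5+M, above Raji (7.64 to 7.81) and Namalwa (7.50 to 7.67). The 6 measured B-cell markers averaged 5.92 to 5.99 and 5.30 to 5.50, with 4 of the 6 below the median of all values on all 6 arrays, so neither line had a B-cell profile. These markers included PTPRC, which is found on most blood cells. It was the only marker among them that passed, and it was lower in L428-PAX5+M. Markers of T and NK cells averaged 5.65 to 5.73 and 5.51 to 5.76, those of myeloid cells 5.35 to 5.52 and 5.35 to 5.40, and none of either passed the test. Markers of fibroblast, endothelial and epithelial cells averaged 5.85 to 5.92 and 5.70 to 5.85.

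PAX5 was measured at 8.64, 7.14 and 6.70 in L428+M replicates 1, 2 and 3 and at 12.70, 12.81 and 12.68 in L428-PAX5+M. Every induced array lay above every control array, and replicate 1 was the highest control. The change was 5.23 ± 0.30 (log2 ± SE, adjusted p = 1.30e-09 by limma), and without L428+M replicate 1 it was 5.81. The SE, here and below, comes from limma's spread pooled over all 6 groups, not from these 2 groups alone. With only the 6 arrays in the fit the adjusted p by limma was 7.31e-05. The induced level exceeded the means of Raji (10.89) and Namalwa (11.08). L428+M replicate 1 was also the highest of its group in 11 of the 15 largest rises described below, and in 871 of the 1790 genes that were higher in L428-PAX5+M. It was the lowest of its group in 3 of the 15 largest falls and in 293 of the 1206 genes that were lower. The same counts were not made over all tested genes, so these have no share to be set against. Below, the 3 L428+M samples are called control replicates and the 3 L428-PAX5+M samples induced replicates. What part of these values comes from PAX5 signal in that control sample was not tested.

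Of all genes, 2996 of 18417 (16.3%) passed limma at an adjusted p below 0.05. The genes higher in L428-PAX5+M numbered 1790 (9.72% of those tested), and those lower numbered 1206 (6.55%). With the replicate number as a block the lower count was 1818. Most differences were modest. The median change of all genes was -0.03, 50.2% of genes lay within 0.2 of 0, and the median size among passing genes was 0.78. At least 2-fold changes were seen in 881 passing genes (4.78%), 500 higher (2.71%) and 381 lower (2.07%). At least 4-fold changes numbered 141, 74 of them higher, and 8-fold changes 14 higher and 16 lower. The 2 groups did not overlap for 5559 genes (30.2%), and 2909 genes (15.8%) both passed and did not overlap. Dim genes contributed little, since 3.79% of the 7107 genes whose higher group mean was below the median signal passed, against 24.1% of the 11310 brighter ones.

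**Figure D1:**
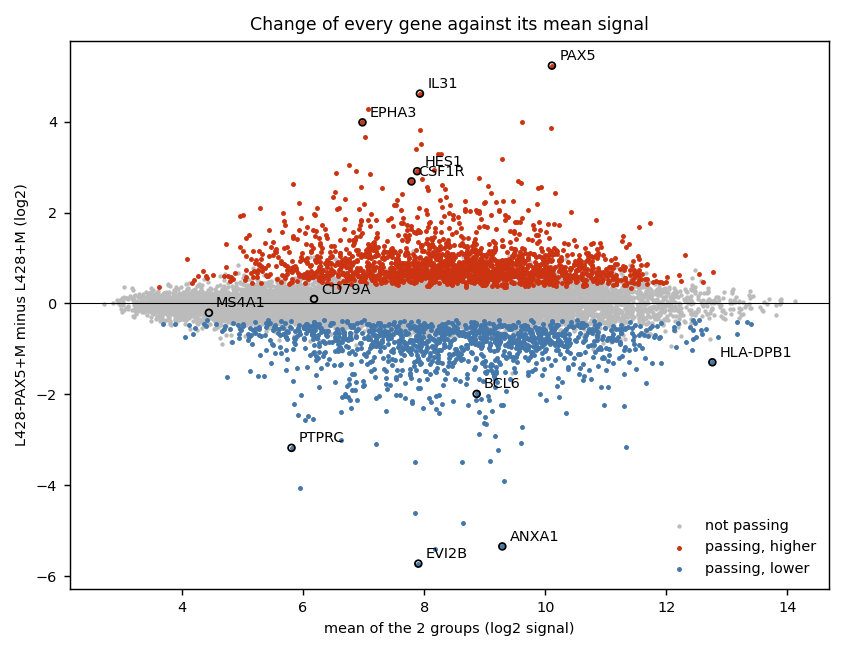
Change of each of the 18417 genes (L428-PAX5+M minus L428+M, log2, vertical axis) against the mean log2 signal of the 2 groups (horizontal axis), with passing genes in red where higher and blue where lower. PAX5 (5.23) and EVI2B (-5.73) lie at the extremes, while the B-cell genes CD79A (0.10) and MS4A1 (-0.21) lie among the genes that did not pass.

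The 15 largest rises after PAX5 were IL31, ICA1L, ENAH, EPHA3, UTRN, ZNF382, C1QTNF9B, PPP1R27, EPB41L5, SCRT1, ABCA2, CA2, FERMT1, ADA and FGF9. The count covers genes whose higher mean lay above the median signal and whose groups did not overlap. Their changes ran from 4.62 to 2.91, and no classical marker of B cells was among them. Members act in signalling, at the actin cytoskeleton and in transcription.

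The list was led by IL31, and FGF9 and C1QTNF9B, lower in it, are secreted as well. IL31, a cytokine of type 2 immunity linked to itch, measured 6.06, 5.20 and 5.60 in L428+M against 10.41, 10.05 and 10.25 in L428-PAX5+M, a 24.6-fold difference (4.62 ± 0.29). Raji (5.01) and Namalwa (5.11) were at the level of the control line, so the induced arrays stood apart from all other undrugged arrays. FGF9, a fibroblast growth factor, measured 5.44, 4.94 and 5.86 and then 8.05, 8.54 and 8.39, with a change of 2.91 ± 0.24. C1QTNF9B, a secreted protein with a C1q domain, rose by 3.67 ± 0.33 from 4.97, 4.84 and 5.75, of which replicate 3 was the highest.

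Cytoskeletal and membrane proteins rose by similar amounts. ENAH, which promotes actin filament elongation, measured 8.03, 7.20 and 7.61 in the controls and 11.67, 11.60 and 11.55 in the induced samples. UTRN, utrophin, which links actin filaments to the membrane, measured 8.17, 7.85 and 8.47 and 11.97, 12 and 12.13. The induced arrays of both genes lay within a narrow range more than 3 log2 units above the highest control, and above Raji and Namalwa, whose means were 7.73 and 10.01 for ENAH and 7.59 and 9.30 for UTRN. EPHA3, a receptor tyrosine kinase for ephrins, measured 5.23, 4.93 and 4.81 and 9.09, 8.82 and 9.01, which is 15.8-fold higher (3.99 ± 0.19, adjusted p = 1.70e-10). FERMT1, a kindlin that activates integrins, rose by 3.04 ± 0.22, and EPB41L5, a cytoskeletal adaptor, by 3.41 ± 0.17. CA2, a carbonic anhydrase, was more spread in the induced arrays (11.57, 10.93 and 10.12) than most, with controls at 8.10, 7.17 and 7.82. Its groups did not overlap, which was a condition for entering this list.

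Among the other rises, the transcriptional repressors ZNF382 and SCRT1 changed by 3.82 ± 0.25 and 3.30 ± 0.31. ADA, adenosine deaminase, which degrades adenosine and is needed for lymphocyte development, measured 6.89, 7.10 and 6.09 in L428+M against 9.66, 9.80 and 9.44 in L428-PAX5+M. With means of 9.91 in Raji and 10.35 in Namalwa, its induced arrays approached the B-cell lines from a lower control level. ABCA2, a lipid transporter, rose by 3.29 ± 0.19, PPP1R27, a regulator of protein phosphatase 1, by 3.52 ± 0.20, and ICA1L by 4.29 ± 0.31.

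PAX5 sites contain a short core, and the promoters of EPHA3, UTRN and ICA1L are shown because these genes are among the 5 largest rises and hold the letters of that core. The half-site GCGTNNC, searched on both strands in the 250 bases before any listed start (RefSeq, GRCh38.p14), was found for 8 of the 21 largest changes with a promoter in the table (38.1%). Among all 14239 tested genes with a promoter the share was 44.7%. The 170 bases before the start are printed on the gene's strand, with matches to the half-site or its reverse complement in capitals. EPHA3 covers chr3:89107451-89107620 (+ strand), UTRN chr6:144285165-144285334 (+ strand) and ICA1L chr2:202871497-202871666 (- strand).
EPHA3: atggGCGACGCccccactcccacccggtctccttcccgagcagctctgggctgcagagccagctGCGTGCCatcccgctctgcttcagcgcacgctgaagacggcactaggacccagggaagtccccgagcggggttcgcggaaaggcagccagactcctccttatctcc
UTRN: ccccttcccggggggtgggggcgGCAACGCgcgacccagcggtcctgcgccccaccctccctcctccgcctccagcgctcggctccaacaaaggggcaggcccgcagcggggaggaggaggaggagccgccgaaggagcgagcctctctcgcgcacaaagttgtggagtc
ICA1L: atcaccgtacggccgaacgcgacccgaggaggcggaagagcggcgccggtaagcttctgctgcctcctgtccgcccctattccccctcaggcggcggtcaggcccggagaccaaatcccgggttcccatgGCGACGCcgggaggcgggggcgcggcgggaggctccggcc
The EPHA3 stretch holds 2 matches, which begin 106 and 166 bases before the start, the UTRN stretch holds 1, which begins 147 bases before it, and the ICA1L stretch holds 1, which begins 40 bases before it. A match is a description of the letters and does not show binding.

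The 15 largest falls were EVI2B, ENTREP1, ANXA1, CYP19A1, TSPAN8, IL5, ENPP3, CYP4Z2P, PTPRR, CLEC2D, NRN1, PTPRC, CYP4Z1, MINAR2 and EGR1, with changes from -5.73 to -3.06. Several of them encode surface proteins of leukocytes, and others encode enzymes.

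EVI2B, a membrane protein of leukocytes, measured 10.67, 10.86 and 10.77 in the controls and 4.97, 4.72 and 5.43 in the induced samples, a 53-fold lower level. Raji (11.41) and Namalwa (10.96) matched the control line within 1 log2 unit, so the induced arrays lay further from the B-cell lines than the controls did. PTPRC, the phosphatase CD45 found on most blood cells, showed the same order, at 7.57, 7.20 and 7.43 in L428+M, 4.09, 4.26 and 4.31 in L428-PAX5+M, and means of 10.39 and 10.28 in Raji and Namalwa. Its 3 induced arrays lay over 2 log2 units below the median signal of 6.62. CLEC2D, the ligand of the NK-cell receptor KLRB1, fell by 3.47 and stood at 10.84 and 10.10 in the B-cell lines, near the control level.

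For other falls the induced arrays came closer to the B-cell lines. ANXA1, an annexin that binds phospholipids and dampens inflammation, measured 11.92, 11.97 and 12 in L428+M against 6.91, 6.23 and 6.72 in L428-PAX5+M (-5.35 ± 0.20, adjusted p = 2.84e-12), with means of 5.02 in Raji and 5.04 in Namalwa. CYP19A1, the aromatase that makes estrogens, measured 11.31, 10.63 and 11.26 and 6.20, 5.93 and 6.55. TSPAN8, a tetraspanin, measured 10.34, 10.10 and 9.99 and 6.17, 5.61 and 4.84, and the induced arrays differed from one another by over 1 log2 unit. In all 3 genes the lowest control array exceeded the highest induced array by more than 3 log2 units. ENTREP1, an adaptor of the ubiquitin ligase ITCH, fell by 5.42, and its induced arrays (5.66, 5.51 and 5.23) were at the Raji and Namalwa means (5.74 and 5.49).

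IL5, the eosinophil growth factor, measured 8.32, 7.01 and 8.63 in the controls and 3.83, 3.77 and 4.13 in the induced samples. Control replicate 2 was the lowest of its group, and all induced arrays were near the Raji and Namalwa means of 4.01 and 3.69. ENPP3, an ectonucleotidase, fell by 3.90, PTPRR, a phosphatase of MAP kinases, by 3.49, the neuritin gene NRN1 by 3.23 and MINAR2 by 3.09. CYP4Z1 and its pseudogene CYP4Z2P fell by 3.17 and 3.50, but their sequences are near-identical, so probe sets may share signal and the separate values are uncertain. EGR1, an immediate-early transcription factor, was the most variable of these genes, at 11.69, 10.36 and 11.36 and 8.89, 7.55 and 7.78. PAX5 and these 30 genes kept their calls under every alternative that was run.

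**Figure D2:**
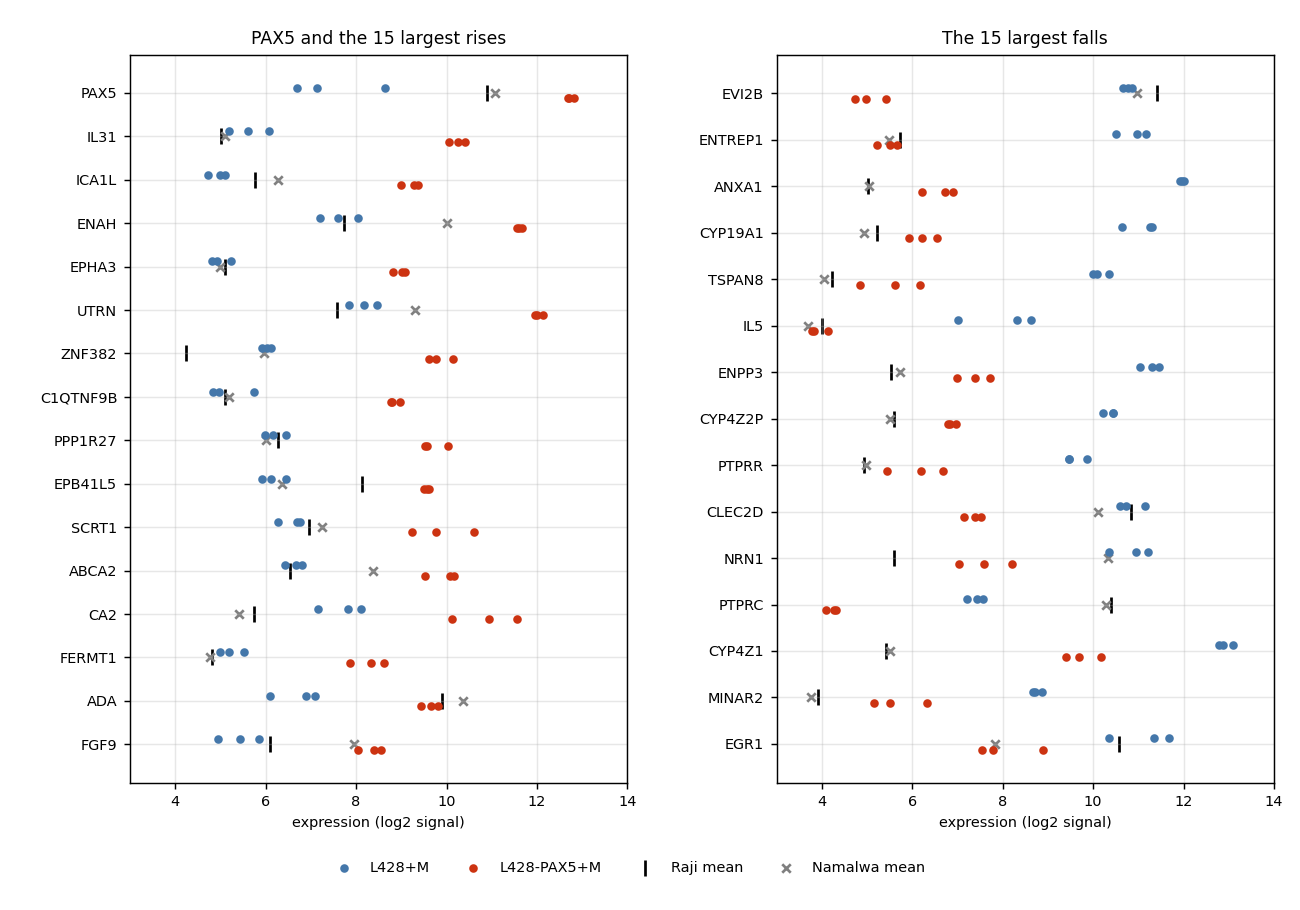
Log2 signal (horizontal axis) of PAX5 and the 15 largest rises (left) and the 15 largest falls (right) on each L428+M (blue) and L428-PAX5+M (red) array, with the means of Raji (bar) and Namalwa (cross). The groups of 3 do not overlap in any of these genes, which were chosen for that, and EVI2B, PTPRC and CLEC2D stand out as falls whose control level was close to or below that of the Burkitt lines.

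The B-cell program was described with 7 gene lists, none of which was tested as a set. For these lists and those below, the shares to compare are 16.3% of all genes and 24.1% of brighter genes passing. Receptor signalling had no member higher and 6 of 18 lower (median change -0.22, against -0.03 for all genes), beside 9.72% of all genes higher and 6.55% lower. Germinal-centre genes had none higher and 5 of 12 lower (median -0.30). Surface antigens and homing receptors had 4 of 27 higher and 3 lower (median -0.10), and B-lineage transcription factors 3 of 22 higher and 3 lower (median 0.00). Of the genes that PAX5 is reported to activate, 2 of 16 were higher and 1 lower (median 0.02), and of those it is reported to repress, 1 of 11 was higher and 2 were lower (median -0.14). Plasma-cell genes counted 1 higher and 3 lower among 17 (median -0.14). Most members of these lists therefore did not pass, among them CD79A, CD79B, CD22, BLNK and MS4A1. EBF1 was not analysed here.

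Of the 6 receptor signalling genes that fell, PRKCB and RASGRP3 changed most. PRKCB, the protein kinase C of B cells, measured 9.41, 9.38 and 8.84 in L428+M against 7.85, 7.37 and 7.05 in L428-PAX5+M, a change of -1.78 ± 0.19 (adjusted p = 2.29e-06). RASGRP3, which activates Ras after receptor engagement, measured 9.85, 9.96 and 10.03 and 8.79, 8.53 and 8.96 and changed by -1.19 ± 0.27. Neither gene overlapped between groups, nor did 2909 of all 2996 passing genes. Both were higher in Raji (9.89 and 11.17) and Namalwa (10.34 and 10.37) than in L428-PAX5+M. The receptor chains CD79A and CD79B changed by 0.10 ± 0.16 and -0.24 ± 0.15, and the kinases BTK and SYK by 0.15 ± 0.13 and -0.30 ± 0.14, without passing. BLK, a SRC-family kinase that acts at the receptor, fell by 0.71. The count of lower receptor signalling genes was 3 without control replicate 1, 3 without induced replicate 2 and 4 without both arrays numbered 3.

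The surface genes that rose stood well below Raji in L428+M. CD53, a tetraspanin of leukocytes, measured 7.72, 7.89 and 7.62 in the controls and 9.87, 9.84 and 9.63 in the induced samples, below the Raji mean of 12.72. CD69, an early activation antigen, measured 5.18, 4.74 and 5.19 and 7.51, 6.08 and 7.14, and CR2, the complement receptor CD21, measured 5.25, 4.79 and 4.30 and 6.77, 6.39 and 6.60. For CR2, induced replicates 2 and 3 lay under the median signal of 6.62, so it remained a dim gene. CXCR5, which guides B cells to follicles and was named after its values were seen, rose by 1.67 ± 0.25 to 7.01, 6.90 and 6.79, still under the Raji mean of 9.43. In all 4 genes the lowest induced array exceeded the highest control array, as in 1736 of the 1790 genes that passed higher. CXCR4, which holds cells in marrow and the germinal-centre dark zone, moved the other way, from 11.55, 11.53 and 11.30 to 10.11, 9.55 and 9.67 (-1.68 ± 0.16), and SLAMF1, a receptor of activated lymphocytes, changed by -1.59 ± 0.20. The lower surface genes numbered 5 with the replicate block and 5 without control replicate 3. In the drug-treated pair of lines described below, 1 of the 4 surface rises was also higher and 2 of the 3 falls were also lower. The shares over all rises and all falls were 43.4% and 68.2%.

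Of the B-lineage transcription factors, TCF12, an E protein, rose by 1.32 ± 0.19, from 10.03, 10.06 and 10.31 to 11.34, 11.30 and 11.72. RUNX1 fell by 1.50, MEF2C by 1.21 and ETS1 by 1.07, with MEF2C at 11.58, 11.63 and 11.52 in L428+M against 10.51, 10.32 and 10.28 in L428-PAX5+M. The groups did not overlap for any of these 4 factors, nor for 2909 of all 2996 passing genes. TCF3 changed by 0.12 ± 0.22, POU2AF1 by -0.02 ± 0.17, SPIB by -0.42 ± 0.30, IRF4 by 0.15 ± 0.16, IKZF1 by 0.52 ± 0.27, BACH2 by -0.21 ± 0.16 and FOXO1 by 0.10 ± 0.14, and none of them passed. IRF8 rose by 0.89 ± 0.28, but by 0.50 to 1.23 when 1 array was left out, and it passed in only 1 of those 6 fits, that without control replicate 1. It also did not pass with only the 6 arrays, array medians subtracted, quantile normalization or without both arrays numbered 3. IKZF3 changed by -0.54 ± 0.22 and passed only with the replicate block and array weights. The higher count was 1 without control replicate 3, 1 without induced replicate 2 and 1 without both arrays numbered 3.

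BCL6, the repressor that maintains the germinal-centre state, measured 9.82, 10.04 and 9.73 in the controls and 8.20, 7.79 and 7.63 in the induced samples. GCSAM, a signalling adaptor of germinal-centre cells, measured 9.83, 10.14 and 9.80 and 7.99, 7.63 and 7.80, and KLHL6, needed for germinal-centre formation, measured 7.59, 7.77 and 8.08 and 6.35, 5.41 and 5.98. In these 3 genes every induced array was over 1 log2 unit below every control array, and both sets lay under the Raji means of 12.31, 12.29 and 11.17. ELL2, an elongation factor of antibody-secreting cells, fell by 1.58, PRDM1, the factor that drives plasma-cell fate, by 0.85 and CREB3L2, a factor of secretory cells, by 0.69, while CD38 rose by 1.29 ± 0.14. XBP1 changed by 0.28 ± 0.18 and did not pass. The plasma-cell counts were 2 higher and 6 lower with the replicate block.

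Genes that PAX5 is reported to control did not move in 1 direction. CSF1R, a myeloid growth factor receptor reported as repressed by PAX5, measured 6.67, 6.49 and 6.18 in L428+M against 9.21, 9.15 and 9.04 in L428-PAX5+M, and rose 6.43-fold (2.69 ± 0.18). It exceeded the Raji and Namalwa means of 6.28 and 6.47. SATB1, a chromatin organiser on the same list, measured 7.53, 7.74 and 7.65 and 5.78, 5.82 and 5.99, a fall of 1.78. CIITA, on the list of activated genes, fell by 1.13, and CR2 on that list rose as above. The activated list had 1 gene higher without any 1 of control replicates 2 and 3 and the 3 induced replicates, and also 1 without both arrays numbered 3. Its lower genes numbered 3 with the block and 2 without control replicate 3.

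The list of E-protein inhibitors and Notch pathway genes had 1 of 16 higher and 3 lower (median -0.15). Its passing share was 25%, beside 16.3% of all genes and 24.1% of the brighter ones. HES1, a repressor induced by Notch, measured 6.80, 6.15 and 6.34 in the controls and 9.39, 9.49 and 9.13 in the induced samples, a 7.52-fold rise (2.91 ± 0.15, adjusted p = 4.81e-10). The induced arrays stood near the means of Raji (9.03) and Namalwa (8.62), and every control array lay more than 1 log2 unit below both means. RBPJ, the DNA-binding partner of Notch, fell by 0.91. The inhibitors of E proteins ID2 and MSC fell by 0.92 and 0.86, calls lost without control replicate 1 or 2 or induced replicate 2 and, for ID2, induced replicate 3 (changes from -1.14 to -0.74 and from -1.16 to -0.63). NOTCH1 changed by 0.05 ± 0.26 and ID3 by 0.45 ± 0.28 without passing. The lower count was 1 without control replicate 1 or 2 or induced replicate 2.

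HLA class II molecules present peptides to helper T cells and are switched on by the co-activator CIITA. In L428-PAX5+M 9 of 10 measured list members were lower and none higher (90% against 6.55% of all genes, median -1.05). None of the 9 overlapped between groups, but neither did 1173 of the 1206 genes that passed lower. Of all genes 14.9% did not overlap in that direction. All measured members are named here to complete the list. HLA-DPB1, a peptide-presenting chain, measured 13.38, 13.45 and 13.40 in L428+M against 11.96, 12.18 and 12.20 in L428-PAX5+M (-1.30 ± 0.14). HLA-DMA, part of the peptide exchanger, measured 11.56, 11.53 and 10.91 and 9.94, 9.90 and 9.48 (-1.56 ± 0.20), and HLA-DOA, part of its inhibitor, measured 9.35, 9.19 and 8.85 and 7.89, 7.84 and 7.74 (-1.31 ± 0.13). CIITA itself measured 8.33, 8.54 and 8.49 and 7.05, 7.54 and 7.39 (-1.13 ± 0.18), and so fell by a similar amount. The presenting chains HLA-DPA1, HLA-DQB1, HLA-DRB5 and HLA-DQA1 fell by between 0.67 and 1.09, and HLA-DMB by 0.98. HLA-DOB, the other chain of the inhibitor, changed by 0.04 ± 0.21 and did not pass. Despite these falls HLA-DPA1 and HLA-DPB1 stayed bright in the induced line, at 12.70, 12.94 and 12.88 and 11.96, 12.18 and 12.20, near the Raji means of 12.45 and 12.09. Family members share sequence, so their probe sets may share signal. Without induced replicate 3 the count was 8, since HLA-DQA1 no longer passed (its changes ranged from -0.97 to -0.77 over the 6 leave-one-out fits), and without both arrays numbered 3 it was 7, without HLA-DQA1 and HLA-DRB5.

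Class II promoters carry a conserved Y box, and the promoters of the fallen genes that hold its letters in this window are shown for that reason. The letters CTGATTGG on either strand were found in the 250 bases before a listed start for 3 of 9 class II list genes with a promoter in the table (33.3%) and for 5.94% of 14239 genes. The 170 bases before the start are given on the gene's strand (RefSeq, GRCh38.p14) with the Y box in capitals. HLA-DQB1 covers chr6:32666658-32666827, HLA-DRB5 chr6:32530288-32530457 and HLA-DMA chr6:32953098-32953267, all on the - strand.
HLA-DQB1: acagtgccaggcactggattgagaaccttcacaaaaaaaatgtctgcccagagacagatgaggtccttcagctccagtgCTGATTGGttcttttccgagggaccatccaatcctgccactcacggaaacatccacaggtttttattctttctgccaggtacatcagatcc
HLA-DRB5: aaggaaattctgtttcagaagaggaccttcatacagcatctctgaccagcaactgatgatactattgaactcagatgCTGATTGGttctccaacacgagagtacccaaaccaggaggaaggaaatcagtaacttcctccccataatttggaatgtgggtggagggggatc
HLA-DMA: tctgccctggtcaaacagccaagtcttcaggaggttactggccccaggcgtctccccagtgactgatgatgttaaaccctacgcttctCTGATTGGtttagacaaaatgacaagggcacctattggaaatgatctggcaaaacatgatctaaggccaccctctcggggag
The box begins 91, 93 and 82 bases before the start in the order given. The other 6 genes lack these exact letters in the window, which says nothing about the factors that bind there.

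Class I presentation genes had 1 of 9 higher and 1 lower (22.2% passing, beside 16.3% of all genes). TAP1, TAP2, PSMB8 and PSMB9 changed by -0.41, 0.46, -0.42 and -0.27, without passing. TAP1 and TAP2, subunits of the peptide transporter, passed with the replicate block in opposite directions (adjusted p = 0.0434 and 0.0345), when the list had 2 higher and 2 lower. The higher gene, ERAP2, was called in the comparison as fitted but in none of the fits that left out control replicate 1 or 2 or an induced replicate. The lower genes numbered 2 without control replicate 3 and 0 without both arrays numbered 3.

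**Figure D3:**
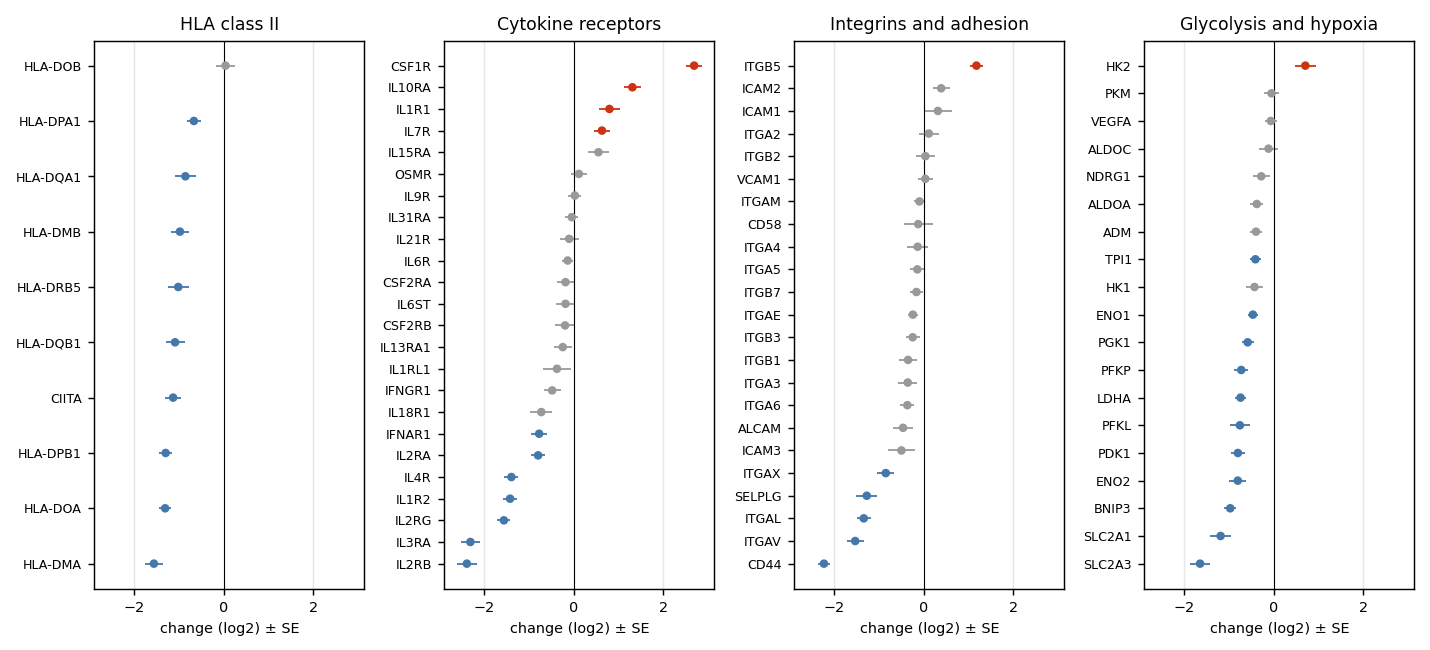
Change (L428-PAX5+M minus L428+M, log2 ± SE, horizontal axis) of each measured member of 4 gene lists, with passing genes in red where higher and blue where lower and other genes in grey. HLA class II genes lie left of 0 except HLA-DOB. The largest fall among cytokine receptors (IL2RB -2.38) and that among adhesion genes (CD44 -2.23) exceed the largest among glycolysis genes (SLC2A3 -1.64). The medians of these 3 lists are in the other order, at -0.19, -0.24 and -0.46.

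Cytokines of Hodgkin cells had 3 of 24 higher and 7 lower (41.7% passing, beside 16.3% of all genes, median -0.06). Beside IL31 and IL5, LTA, lymphotoxin alpha, rose from 10.97, 11.37 and 10.69 to 12.01, 12.37 and 11.81 (1.05 ± 0.18), and CXCL10, a chemokine for T cells, fell from 9.87, 10.04 and 9.94 to 8.41, 7.98 and 8.67 (-1.60 ± 0.24). CCL17, a chemokine typical of Hodgkin cells, rose from 10.81, 10.35 and 10.44 to 11.26, 11.12 and 11.38 (0.72 ± 0.17), a call lost without both arrays numbered 3 (0.61, adjusted p = 0.0725 by limma). CCL22, which acts on the same receptor, changed by 0.09 ± 0.17 and IL13 by 0.13 ± 0.35, without passing. Lower members numbered 3 without induced replicate 3.

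Cytokine receptor chains had 4 of 24 higher and 7 lower (45.8% passing, beside 16.3% of all genes, median -0.19). All 7 falls were also lower in the drug-treated pair of lines described below, as were 68.2% of all genes lower without drugs. IL2RB and IL2RG, the shared signalling chains of the IL-2 and IL-15 receptors, led with IL3RA, the IL-3 receptor chain. IL2RB measured 10.11, 10.63 and 9.58 in the controls and 8.02, 7.60 and 7.54 in the induced samples (-2.38 ± 0.23). IL3RA measured 9.31, 9.19 and 8.88 and 7.49, 6.65 and 6.33 (-2.30 ± 0.22), and IL2RG measured 12.10, 12.23 and 11.89 and 10.46, 10.35 and 10.74 (-1.56 ± 0.14). The 3 genes were lower on every induced array, as were 1173 of the 1206 genes that passed lower. IL2RB and IL3RA remained above their Raji means (6.0 and 4.83). IL10RA, the IL-10 receptor, rose from 10.37, 10.22 and 9.72 to 11.53, 11.64 and 11.07. CSF1R, described above, was the largest rise, and the higher count was 2 without control replicate 1 and 2 without induced replicate 1.

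TNF receptor family genes and their adaptors had 4 of 19 higher and 2 lower (31.6% passing, beside 16.3% of all genes, median -0.15). TRAF3 and TRAF5, adaptors that tune NF-kB, rose by 1.58 ± 0.23 and 1.73 ± 0.17, and TNFRSF9, the costimulatory receptor 4-1BB, rose by 1.34 ± 0.18. TNFRSF11A, the receptor RANK, fell from 9.17, 9.31 and 8.87 to 7.16, 7.02 and 6.91. TNFRSF8, the Hodgkin marker CD30, fell by 0.67, but not to the threshold without control replicate 1 or 2 or induced replicate 1 or 3, with only the 6 arrays or with array medians subtracted (-0.95 to -0.50 over the leave-one-out fits). CD40 changed by -0.02 ± 0.19 and did not pass. The number of falls was 1 without control replicate 1 or 2 and without induced replicate 1 or 3.

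In the JAK-STAT list 1 of 17 genes was higher and 5 were lower (35.3% passing, beside 16.3% of all genes, median -0.40). STAT4, a transducer of IL-12 signals, measured 10.89, 10.95 and 11.07 in L428+M against 8.21, 8.15 and 8.42 in L428-PAX5+M, a 6.55-fold difference (-2.71 ± 0.16). PIM2, a kinase induced by STAT factors, fell by 1.76, and PTPN1, a phosphatase that restrains JAK signalling, by 1.04. SOCS2, a feedback inhibitor, rose by 1.25 ± 0.16. STAT3 changed by 0.23 ± 0.11, STAT5A by 0.17 ± 0.18 and JAK2 by -0.37 ± 0.19, without passing. With the replicate block 9 genes were lower, and the count was 3 without control replicate 2 and without induced replicate 1 or 3. The calls gained with the block were those of SOCS1 (-0.92, adjusted p = 5.38e-04), STAT6 (-0.51, 0.0164), JAK3 (-0.42, 0.0182) and PIM1 (-0.40, 0.0306).

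NF-kB genes had 4 of 19 higher and 3 lower (36.8% passing, beside 16.3% of all genes, median 0.23). NFKB2 and REL, a pair of subunits, rose by 1.20 ± 0.15 and 0.88 ± 0.17, and NFKBIA, the inhibitor IkB-alpha, fell from 12.04, 11.81 and 11.84 to 10.99, 10.90 and 10.70 (-1.03 ± 0.12). NFKB1 changed by 0.20 ± 0.13 and RELB by 0.37 ± 0.22, without passing. The lower count was 1 without control replicate 2 and without induced replicate 1 or 3. AP-1 genes had none of 12 higher and 3 lower (25% passing, beside 24.1% of brighter genes, median -0.21). FOS, an immediate-early factor like EGR1, measured 9.52, 7.86 and 8.49 in the controls and 7.11, 6.58 and 6.10 in the induced samples (-2.02 ± 0.42), while JUNB, BATF and BATF3, which Hodgkin cells express, changed by -0.13, -0.19 and 0.44 without passing. Lower members numbered 1 without induced replicate 2 or 3 and without both arrays numbered 3.

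Ligands that regulate T cells had 2 of 11 higher and 2 lower (36.4% passing, beside 16.3% of all genes, median -0.08). CD274, the checkpoint ligand PD-L1, measured 7.06, 7.16 and 7.50 in L428+M against 8.82, 9.07 and 8.58 in L428-PAX5+M, and IDO1, which depletes tryptophan, measured 6.42, 6.51 and 7.20 and 8.67, 7.99 and 9.08. CD86, a costimulatory ligand, measured 11.43, 11.04 and 11.42 and 10.03, 9.90 and 9.94, and LGALS1, the immunosuppressive galectin-1, measured 12.81, 12.43 and 12.41 and 11.01, 10.88 and 10.50. None of the 4 genes overlapped between groups, nor did 2909 of all 2996 passing genes. Their changes were 1.58 ± 0.23, 1.87 ± 0.45, -1.34 ± 0.20 and -1.75 ± 0.15. PDCD1LG2, another ligand of the same checkpoint receptor, changed by -0.08 ± 0.34 and CD80 by 0.02 ± 0.35, without passing.

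Lists of genes of cell shape and contact passed at shares from 17.2% (ephrins, semaphorins and their receptors) to 30.4% (actin regulators). Integrins and adhesion molecules passed at 26.1% and tetraspanins at 27.3%. Of all genes 16.3% passed, and of the brighter ones 24.1%. The lists were chosen with earlier results of these data known. They hold ENAH, UTRN, EPHA3 and TSPAN8, which are among the 30 largest changes, so their shares are no test. Integrins and adhesion molecules had 1 of 23 higher and 5 lower (median -0.24), and all 5 falls recurred in the drug-treated pair. CD44, the hyaluronan receptor, measured 10.66, 10.26 and 10.31 in the controls and 8.38, 8.16 and 8.02 in the induced samples (-2.23 ± 0.13, adjusted p = 1.30e-09). ITGAV, an integrin chain that binds vitronectin, fell by 1.53 and ITGAL, the LFA-1 chain, by 1.34, whereas ITGB5, which pairs with ITGAV, rose by 1.18 ± 0.15. The adhesion ligand ICAM1 and the chains ITGA4 and ITGB1 changed by 0.32, -0.13 and -0.35, without passing. Higher members numbered 2 without control replicate 1. Annexins and S100 proteins had none of 15 higher and 6 lower (median -0.23). ANXA1 fell far more than S100A10 (0.90) and ANXA6 (0.67), the next in order.

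Actin regulators and cytoskeletal linkers had 4 of 23 higher and 3 lower (median -0.13). After ENAH and UTRN, CALD1, caldesmon, rose by 1.56 ± 0.26, from 7.14, 7.18 and 7.04 to 8.88, 8.56 and 8.62, and VIM, vimentin, fell by 0.84. VASP and EVL, the relatives of ENAH, changed by -0.13 ± 0.14 and -0.21 ± 0.13, and DMD, the relative of UTRN, by -0.06 ± 0.12, without passing. The number of falls was 1 without control replicate 1 or 2 or induced replicate 2. Ephrins, semaphorins and their receptors had 3 of 29 higher and 2 lower (median -0.01). EFNB1, an ephrin, rose by 1.10 ± 0.20, and EFNA5, a ligand class bound by EPHA receptors, fell from 8.56, 8.51 and 8.58 to 7.20, 7.60 and 7.44 (-1.14 ± 0.16). The lower count was 4 with the block and 4 without control replicate 3. Tetraspanins had 3 of 22 higher and 3 lower (median -0.12), with TSPAN7 and TSPAN2 falling by 1.51 and 1.34 after TSPAN8. The tetraspanins higher numbered 1 without control replicate 3 and 1 without induced replicate 1, and those lower 5 without control replicate 3.

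Ribosome biogenesis and MYC targets had the largest share of rises among the 36 lists, 10 of 19 higher and none lower (52.6% passing, median 0.48). Of all genes 9.72% were higher. RRS1, a ribosome assembly factor, measured 9.75, 9.50 and 9.03 in L428+M against 11.57, 11.41 and 11.32 in L428-PAX5+M (2.00 ± 0.23). ODC1, which starts polyamine synthesis, measured 11.02, 10.48 and 10.26 and 12.24, 11.93 and 11.71, and NOP2, an rRNA methyltransferase, measured 9.43, 9.38 and 8.88 and 10.32, 10.20 and 10.10. The groups did not overlap in these 3 genes, nor in 2909 of all 2996 passing genes. FBL, NCL and NPM1, abundant nucleolar proteins, changed by 0.00, 0.29 and -0.18, without passing. In the drug-treated pair 1 of the 10 rises was also higher and 1 was lower, beside 43.4% and 7.6% of all genes higher without drugs. Leave-one-out counts ran from 7 to 10, and the count was 8 without both arrays numbered 3.

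Glycolysis and hypoxia genes had 1 of 19 higher and 11 lower (63.2% passing, beside 16.3% of all genes, median -0.46). SLC2A3 and SLC2A1, glucose transporters, measured 11.09, 11.32 and 10.69 and 11.85, 11.81 and 10.99 in the controls and 9.73, 9.33 and 9.12 and 10.48, 10.54 and 10.07 in the induced samples. BNIP3, a hypoxia-induced mitochondrial protein, fell by 0.97. LDHA, PGK1 and ENO1, glycolytic enzymes, were among the brightest genes of the list and fell by 0.74, 0.58 and 0.46. They were named after their values were seen, and the calls of PGK1 and ENO1 were lost without both arrays numbered 3. PKM and VEGFA changed by -0.05 ± 0.17 and -0.06 ± 0.14, without passing. In the drug-treated pair 10 of the 11 falls were also lower. The higher gene, HK2, did not pass without control replicate 1 or 3, without induced replicate 1 or 2, without both arrays numbered 3, with only the 6 arrays in the fit, or with array medians subtracted or quantile normalization. Lower members numbered 9 without both arrays numbered 3.

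Cell cycle genes had 3 of 24 higher and 3 lower (median 0.01). Their passing share was 25%, beside 16.3% of all genes and 24.1% of the brighter ones. CCNE1, cyclin E1, rose by 1.03 ± 0.16 and MCM4, a helicase subunit, by 0.62 ± 0.12, whereas RRM2, a ribonucleotide reductase chain, fell by 1.05. MKI67 changed by -0.21 ± 0.15 and TOP2A by -0.10 ± 0.16, without passing. The number of falls was 1 without control replicate 1, without induced replicate 3 or without both arrays numbered 3, and the higher count 5 without control replicate 1. D cyclins and cyclin-dependent kinase inhibitors had 1 of 14 higher and 1 lower (14.3% passing). The lower gene was CDKN1B, the inhibitor p27, from 10.82, 10.82 and 10.27 to 9.72, 9.25 and 9.34. The number of rises was 2 with the block, and 0 without induced replicate 3 or both arrays numbered 3.

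BCL2 family genes and caspases had 1 of 19 higher and 4 lower (median -0.07). Their passing share was 26.3%, beside 16.3% of all genes and 24.1% of the brighter ones. BCL2L11, the death-promoting protein BIM, measured 6.86, 7.03 and 7.31 in L428+M against 8.99, 9.10 and 9.0 in L428-PAX5+M (1.96 ± 0.16), and BCL2, which opposes it, measured 8.45, 8.74 and 8.31 and 7.58, 7.12 and 7.22 (-1.19 ± 0.19). BMF, another death promoter, fell by 1.30. BCL2L1 changed by 0.20 ± 0.25 and did not pass. The higher count was 2 with the block and without control replicate 1 or induced replicate 3.

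Interferon-response genes had 3 of 29 higher and 6 lower (31% passing, beside 16.3% of all genes, median -0.29). IRF1, a transcription factor induced by interferon-gamma, measured 9.36, 9.42 and 9.32 in the controls and 11.26, 11.08 and 10.93 in the induced samples (1.72 ± 0.15), and MX2 rose by 0.85 ± 0.16. IFITM1 fell by 1.38, IFITM2 by 1.25 and IFIT2 by 1.27. ISG15 changed by -0.10 ± 0.26 and did not pass. Higher members numbered 5 with the block. ATF4 targets and unfolded protein response genes had 3 of 16 higher and 3 lower (37.5% passing, median 0.08). The amino acid genes SLC7A11 and PSAT1 rose by 1.36 ± 0.29 and 1.21 ± 0.18. DNAJB9, a chaperone partner of the endoplasmic reticulum, fell by 2.03. The number of rises was 5 with the block.

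Cholesterol synthesis genes had none of 14 higher and 2 lower (14.3% passing, beside 16.3% of all genes, median -0.21). Of these 2, INSIG1, a brake on sterol synthesis, fell by 0.91. The lower count was 4 with the block, and 1 without control replicate 1 or 2 or induced replicate 2 or 3. Receptors for glucocorticoids and progesterone and their targets, which mifepristone can block, had none of 13 higher and 2 lower (15.4% passing, median -0.06). TSC22D3 and DUSP1, glucocorticoid-induced genes, fell by 1.60 and 1.19, and both lines had the same mifepristone dose. The receptor genes NR3C1 and PGR changed by -0.61 ± 0.32 and 0.25 ± 0.18, without passing. DNA methylation, histone deacetylation and Polycomb genes had 2 of 20 higher and 2 lower (20% passing, median -0.15). DNMT1, the maintenance methyltransferase, rose by 0.52 ± 0.12. The higher count was 1 without control replicate 2 or 3, induced replicate 1 or 2, or both arrays numbered 3. Lower members numbered 1 in every fit that left out 1 array except that without induced replicate 1, where it was 0, and 1 without both arrays numbered 3.

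Lists for other lineages passed at shares on both sides of 16.3%, that of all genes. The shares were 10.5% for T and NK cells, 12.5% for myeloid genes, 13.3% for fibroblast, endothelial and epithelial genes and 22.2% for neuronal genes. For T and NK cells, 1 of 19 genes was higher and 1 lower (median -0.05), the latter GATA3, a T-cell factor that Hodgkin lines express, from 11.24, 11.82 and 11.23 to 10.59, 10.38 and 10.30. Higher members numbered 0 without control replicate 1 or 2 or induced replicate 1, and the lower count 2 without control replicate 1. Myeloid genes had 1 of 16 higher, CSF1R, and 1 lower (median -0.08), while CD14, MPO and LYZ changed by -0.15, 0.10 and -0.05, without passing. The number of falls was 0 in each fit that left out 1 array except that without control replicate 1, and 0 without both arrays numbered 3. Fibroblast, endothelial and epithelial genes had none of 15 higher and 2 lower (median -0.06), with PECAM1, also a leukocyte adhesion molecule, falling by 1.49. The lower count was 1 without control replicate 2, induced replicate 2 or 3, or both arrays numbered 3, and 1 gene was higher with the block. Neuronal genes had 2 of 18 higher and 2 lower (median -0.19), with MAP2 rising by 1.41 ± 0.14 and STMN2 falling by 2.04, 2 proteins that bind microtubules or tubulin. The neuronal count of higher genes was 1 without induced replicate 2.

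**Figure D4:**
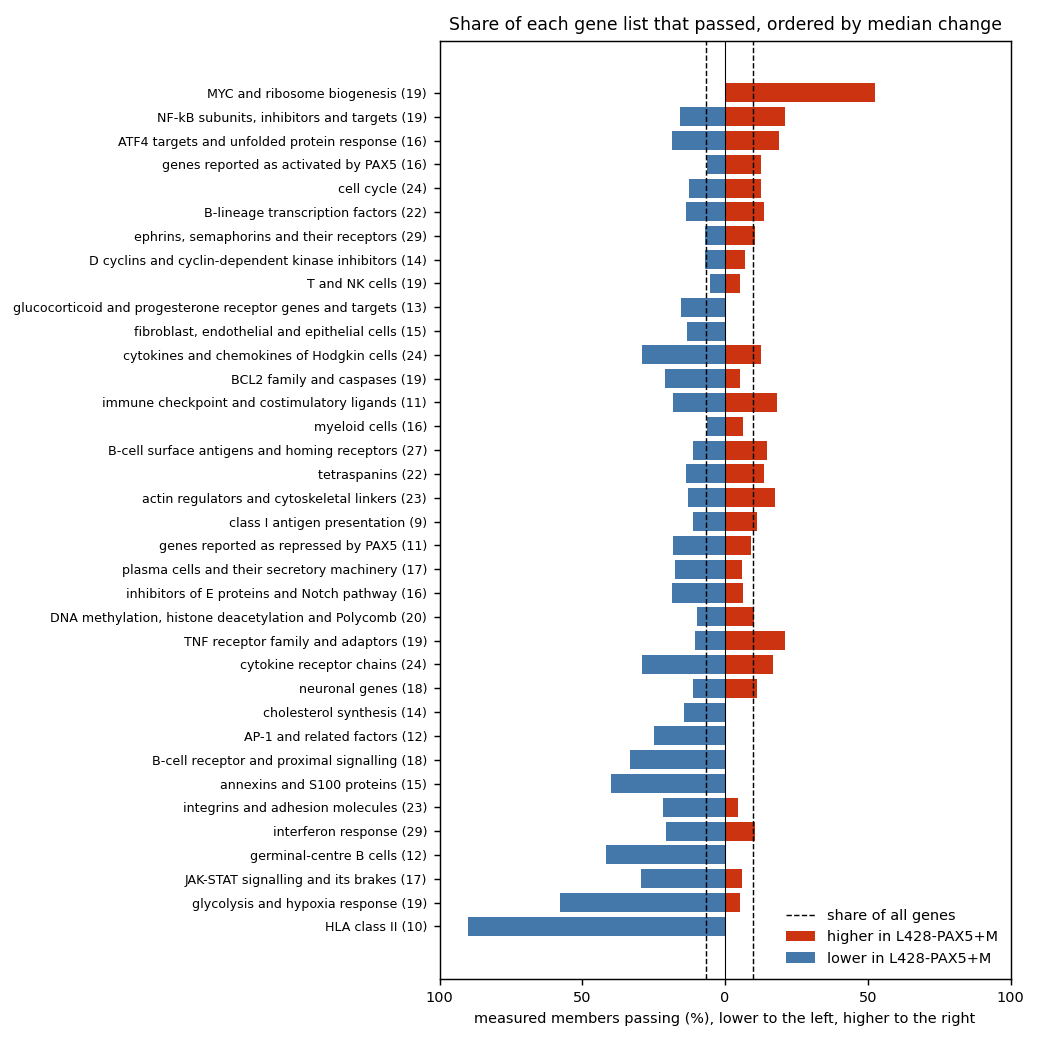
Share of measured members of each of the 36 gene lists (number measured in parentheses) that passed, higher to the right in red and lower to the left in blue (horizontal axis, %), ordered by median change. Dashed lines mark the shares of all genes, 9.72% higher and 6.55% lower, and HLA class II (9 of 10 lower), glycolysis (11 of 19 lower) and ribosome biogenesis (10 of 19 higher) reach furthest from them.

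The share of passing genes differed between chromosomes, which was described without a test. Brighter genes passed more often (24.1% against 3.79%), and their share on each chromosome was not counted. The share of tested genes that were higher was 9.72% over all genes. It was largest on chromosome 9 (17.8% of 732), chromosome 13 (16.4% of 317) and chromosome 15 (14.1% of 576). The share that were lower, 6.55% over all genes, was largest on chromosome 18 (12.5% of 264), the X chromosome (11.7% of 694) and chromosome 10 (10.9% of 679). Runs of 21 neighbouring genes with signal above the median, in RefSeq order, had medians between -0.24 and 0.34 from the 5th to the 95th percentile of 10835 overlapping runs. The highest run, on chromosome 5 from OTULIN to NADK2, had 13 genes higher, none lower and a median of 0.74. Another run on chromosome 5, from CCDC127 to ICE1, had 11 higher and none lower. The lowest run, on the X chromosome from CRLF2 to GEMIN8, had none higher, 12 lower and a median of -0.79, and a run on chromosome 18 from ALPK2 to CYB5A had none higher and 12 lower (median -0.54). These runs were chosen for their medians and carry no test. Copy number was not measured in these files, and its part in the runs was not tested.

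The drug-treated pair, L428-PAX5+MAT against L428+MAT, holds the same contrast of lines in drug-treated samples. It is not an independent repeat, since its arrays entered the estimate of spread in the undrugged test. Same-numbered arrays with and without drugs also deviated together (r from 0.59 to 0.74 in L428 and from 0.39 to 0.50 in L428-PAX5). There 5898 genes passed (32%), 2642 higher (14.3%) and 3256 lower (17.7%). Of the 1206 genes lower without drugs, 823 (68.2%) were also lower with them and 37 (3.07%) were higher. Of the 1790 genes higher without drugs, 776 (43.4%) were also higher and 136 (7.6%) were lower. Among changes of at least 2-fold, 318 of 381 falls (83.5%) and 285 of 500 rises (57%) recurred in the same direction. Over all genes the changes of the 2 pairs correlated with r = 0.49, a description across genes, which are not independent replicates.

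Recurrence was counted over the members of the 36 lists, each gene once. Of 119 falls 100 (84%) were also lower with drugs, beside 68.2% of all falls, and 1, of the cyclin CCNE2, was higher. Of 64 rises 20 (31.2%) were also higher, beside 43.4% of all rises, and 9 (14.1%) were lower, beside 7.6%. Those 9 were IDO1 (-1.35 with drugs), TRAF3 (-0.71), CALD1 (-0.79), CD38 (-1.53), LTA (-1.99), MX2 (-0.91), CCL17 (-1.09), the rRNA modification factor DKC1 (-0.75) and the antiviral enzyme OAS3 (-1.53). CCNE2, DKC1 and OAS3 were named after their values were seen, and each lost its undrugged call without at least 1 array. All 9 class II falls, all 6 falls of receptor signalling genes and all 7 falls of cytokine receptors were also lower with drugs, as was STAT4. EVI2B had nearly the same change in both pairs (-5.73 ± 0.18 and -5.75 ± 0.18), as did HES1 (2.91 ± 0.15 and 2.86 ± 0.15). The difference of the 2 changes passed for 2990 of 18417 genes (16.2%), and for 13 of PAX5 and the 30 largest changes. The drug-treated change of IL31 was 0.86 ± 0.29 instead of 4.62 ± 0.29, that of FERMT1 0.74 ± 0.22 instead of 3.04 ± 0.22, and that of EGR1 -0.56 ± 0.40 instead of -3.06 ± 0.40. CYP4Z1 had the larger fall with drugs, -5.79 ± 0.25 against -3.17 ± 0.25. PAX5 itself changed by 5.62 ± 0.30 with drugs, and the difference did not pass.

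**Figure D5:**
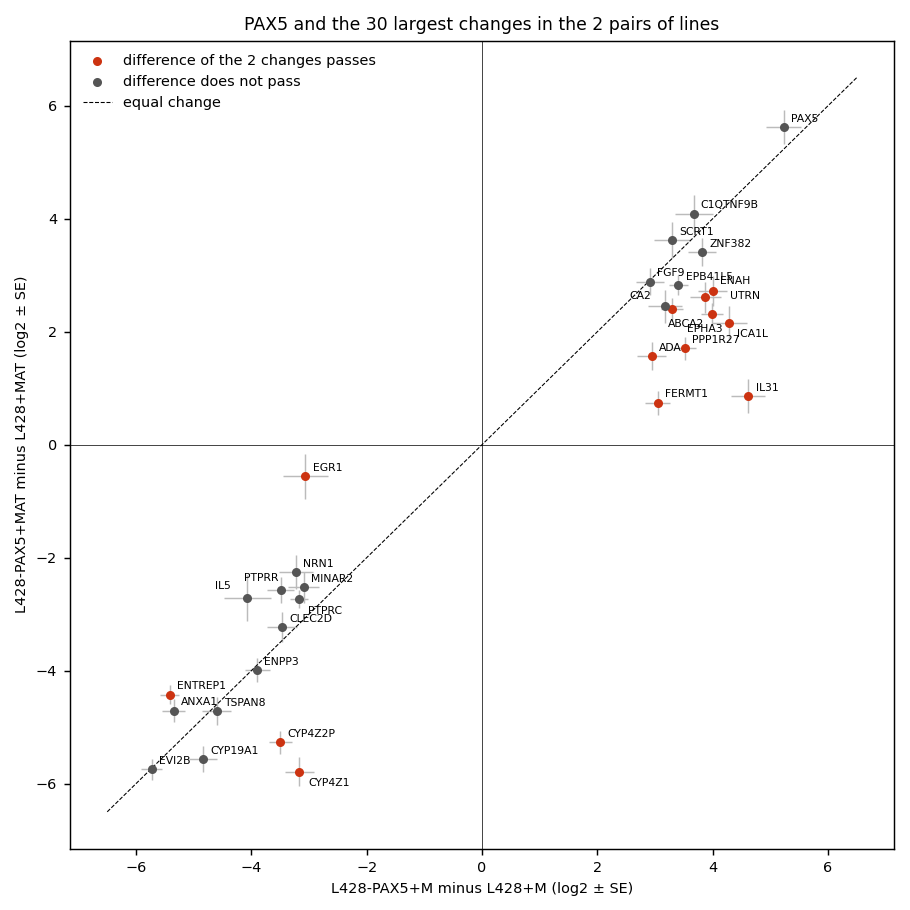
Change of PAX5 and the 30 largest changes without drugs (L428-PAX5+M minus L428+M, log2 ± SE, horizontal axis) and with drugs (L428-PAX5+MAT minus L428+MAT, log2 ± SE, vertical axis). The dashed line marks equal change, red points are the 13 genes whose 2 changes differed by a passing amount, and IL31 (4.62 without and 0.86 with drugs) lies furthest from the line. The genes were chosen for their change without drugs.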

How the data were processed

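Per the labels' protocols, 250 ng of total RNA per sample was biotin-labelled for Affymetrix arrays of whole transcripts. The authors deposited log2 expression values for 33297 probe sets on 18 arrays, from 2.24 to 14.64. RMA and Partek were used, per the submitters' processing notes, and versions and order of steps are not given in the sources used here. RMA compresses low signal, which shrinks the changes of dim genes. The platform annotation gives 1 gene symbol for 19460 probe sets and several for 1754, and 12083 are unnamed here. Identifiers of 19429 matched RefSeq (GRCh38.p14) and no symbol changed. For 769 genes with several sets the brightest was kept, which left 18417 genes. No 2 arrays held identical values.

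Groups came from the labels. The L428-PAX5+MAT titles name L425-PAX5, and the cell line field was followed. The test was limma's (version 3.58.1, R 4.3.3), using lmFit and eBayes without a trend on all 18 arrays and a mean for each of the 6 groups. It had 12 residual and 6.08 prior degrees of freedom and was two-sided, with Benjamini-Hochberg adjustment over 18417 genes and a threshold of 0.05. The script was tested on simulated data. The number of arrays limits the precision. Plots used matplotlib 3.10.9 in Python 3.11.15, and tables pandas 2.3.3.

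Replicate numbers in the titles pair the samples. Deviations from the group means correlated between same-numbered arrays of the 2 groups (r = 0.57, 0.58 and 0.63 over 11310 brighter genes), and between other numbers r ran from -0.44 to -0.01. The unblocked fit was kept as planned, and the block was an alternative. The others were only the 6 arrays, an intensity trend, array weights, array medians subtracted, quantile normalization, dim genes left out, the mean of a gene's probe sets, and each array left out. Leaving out both arrays numbered 3 was chosen after seeing the data.

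The members, the 36 gene lists and the tests were chosen with earlier results of these data known, and lists are described by counts without a set test. Named genes are PAX5, the 15 largest rises and falls (passing, not overlapping, with the brighter group above the overall median), the largest changes of each list (at most 3 each way, those whose call was lost in an alternative being mostly left to the counts), a fixed set of B-cell and Hodgkin genes, and non-passing members where a list needs them. Promoters came from RefSeq. No protein sequence was used here.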

Additional observations from a re-analysis of the deposited data

Results flagged for a closer look

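The change between the lines differed between the undrugged and the drug-treated pair, by limma's test of the difference, for 13 of the 30 largest undrugged changes (16.2% of all genes passed that test). These genes were chosen for their undrugged change. The values below are the drug-treated change minus the undrugged change on the log2 scale.

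Among the rises, the drug-treated change of the cytokine IL31 was lower by the largest amount (-3.76). The integrin activator FERMT1 differed by -2.30, ICA1L by -2.13, the phosphatase regulator PPP1R27 by -1.81 and the ephrin receptor EPHA3 by -1.67. ADA differed by -1.38, the actin regulator ENAH by -1.28, UTRN by -1.26 and the lipid transporter ABCA2 by -0.89. All 9 kept a passing rise in the drug-treated pair.

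Among the falls, the immediate-early factor EGR1 differed by 2.51, and its drug-treated change (-0.56 ± 0.40) did not pass. ENTREP1 differed by 0.99 and still fell. CYP4Z1 and CYP4Z2P, whose probe sets may share signal, differed by -2.62 and -1.78, which is a larger fall with drugs.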

How the results depend on the processing

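PAX5 and the 30 largest changes passed in the same direction under every alternative run, and no passing list member changed sign. Of the 430 list members that did not pass, 144 had the other sign in at least 1 alternative. The 2996 passing genes (1790 higher, 1206 lower) became 4377 with the replicate block on 18 arrays, of which 2996 are shared, with 1818 lower. With the block on 6 arrays they were 5163, 2947 higher and 2216 lower. At an adjusted p below 0.01 they were 1873, 1133 higher and 740 lower. Leaving out 1 array gave 2258 to 2722, with 1333 to 1636 higher and 869 to 1190 lower, and leaving out both arrays numbered 3 gave 2238. The 5898 genes of the drug-treated pair became 11176 with array weights, and the cause was not tested. In that fit replicates 1, 2 and 3 had weights of 15.24, 0.29 and 0.25 in L428-PAX5+MAT. In L428+MAT the weights were 0.54, 4.95 and 0.44. PAX5 changed by 4.84 to 5.81 over the leave-one-out fits. Of the 183 passing list members 60 lost the call in at least 1 alternative, none of them through the block. Of all 2996 calls the block on 6 arrays kept 2992. Quantile normalization moved the median of all genes from -0.03 to -0.06. The arrays give no depth, and genes below the median signal rarely passed.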
